A study of Mus musculus with 9 samples.

Results

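Glycolysis and the response to low oxygen were followed through 40 named genes after knockdown of Myt1 or LSD1. The cells were Neuro2a, a mouse line grown from a neuroblastoma. The genes were chosen by name as glycolytic enzymes, glucose and lactate carriers, regulators of glycolytic flux, oxygen sensors and further genes known to be induced by hypoxia. These genes, and the bordering lists below, were chosen with earlier results of these data known. Of the 40, 36 were measured by a probe set with a single gene symbol, out of 18193 such genes in all. Gapdh and Bnip3l were represented only by probe sets with several symbols, apart from the array's own Gapdh controls, and Gpi1 and Eno1 were unnamed among the probe sets used here. The groups were siMyT1 (an siRNA against Myt1), siLSD1 (an siRNA against the histone demethylase LSD1, encoded by Kdm1a) and siControl (a control siRNA). Each had 3 arrays of RNA taken 48 h after treatment of the same cell line. The labels do not give the oxygen or glucose of the medium. Nor do they say whether replicates were separate cultures, so p-values measure only the spread between these samples.

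Each siRNA lowered its own target. Values are array intensities in the units deposited, and those of different genes cannot be set against each other. Myt1, a neural zinc finger transcription factor, measured 0.625, 0.882 and 0.474 units on the siMyT1 arrays, 7.09, 7.59 and 6.16 on the siLSD1 arrays and 4.6, 5.27 and 4.82 on the siControl arrays (log2 fold change -2.60, SE 0.15, adjusted p = 1.25e-06 for siMyT1 against siControl). Kdm1a measured 29.9, 30.1 and 32.8 units on the siMyT1 arrays, 4.80, 4.05 and 4.63 on the siLSD1 arrays and 28.1, 30.1 and 28.9 on the siControl arrays (log2 fold change -2.64, SE 0.07, adjusted p = 3.01e-10 for siLSD1 against siControl). Of 9 measured neuroblastoma and sympathoadrenal markers, 8 averaged over 1 unit in each knockdown and 9 in siControl. The median gene averaged 1.16 units over all arrays. The 9 markers summed to 124 to 134 units in siMyT1, 179 to 196 in siLSD1 and 166 to 179 in siControl, totals carried mostly by the brightest. Dbh, of noradrenaline synthesis, averaged under 1 unit in both knockdowns. These markers moved with the groups. At an adjusted p under 0.05, siMyT1 against siControl had 0 markers up and 4 down. For siLSD1 against siControl the counts were 4 up and 1 down, and for siMyT1 against siLSD1 0 up and 6 down. These are 44.4%, 55.6% and 66.7% of the 9 markers, where 7.41%, 8.90% and 18.8% of all genes passed. The part of the marker shifts in the results below was not tested. All 4 myeloid markers averaged under 1 unit in every group, as did 6 of 7 fibroblast markers in siMyT1 (Dcn at 1.29 units there) and all 7 in siLSD1 and siControl. Of 4 epithelial markers, Epcam alone averaged over 1 unit. In bulk RNA, fewer cells with a transcript and less of it per cell cannot be told apart.

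Single arrays stood high or low across these genes. Of the 31 members averaging over 1 unit, siLSD1 replicate 2 gave the lowest value of its group for 28, and for 65.8% of all genes over 1 unit, and its summed intensity of 196271 units was the lowest of the 9. In siControl, replicate 2 gave the highest value for 27 of the 31, and for 67.0% of all genes over 1 unit. In siMyT1, replicate 1 was highest for 15 of the 31 members while it was lowest for 73.9% of all genes over 1 unit. The part of these shifts in the results was not tested beyond the alternatives without single arrays and with other scalings. The ratio of 3' to 5' Gapdh control probe sets was 0.796 ± 0.0082 in siMyT1, 0.798 ± 0.017 in siLSD1 and 0.785 ± 0.0092 in siControl, and that of actin 1.11 ± 0.0049, 1.17 ± 0.054 and 1.17 ± 0.017 (SD, n = 3 each).

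In glycolysis, hexokinases trap glucose as a phosphate, phosphofructokinase commits it to breakdown, and the lower pathway yields ATP and pyruvate, which lactate dehydrogenase can turn into lactate for export. The hypoxia-inducible factors are transcription factors whose alpha subunits, the products of Hif1a and Epas1, are hydroxylated by the Egln enzymes when oxygen is present and then tagged for destruction by the ubiquitin ligase that holds Vhl. When oxygen falls, the stabilised factors raise glucose carriers, most glycolytic enzymes, Pdk1, Vegfa, Adm and their own inhibitors Egln1 and Egln3. Neuroblastoma cells, like other tumour cells, commonly run glycolysis at high rates also in oxygen.

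Hypoxia-inducible factors bind the core letters ACGTG or GCGTG, so these were looked for on both strands (CACGT or CACGC on the other) in RefSeq promoter windows of assembly GRCm38.p6, each from 250 bases before to 50 bases after a gene's start. Windows were found for 33 of the 36 measured genes, all but Epas1, Ndrg1 and Slc2a3. Of 46 windows of the 33 genes, 36 (78.3%) held at least 1 match, against 14380 of 32851 windows of all genes (43.8%), and 28 (60.9%) held ACGTG, against 19.6% of all. Among genes with 1 window, the shares with a match were 87.0% for members and 43.1% for all. The genes were chosen partly as known to be induced by hypoxia, so these shares are no result of the arrays. The windows also differ in base composition, with a median GC content of 63.0% for the 33 genes and 52.7% for all, and a match is a string of letters, not a measured binding site. The 3 windows printed here are those of the genes that passed the test after both siRNAs, Hk2, Egln1 and Adm, with every match in capitals. They lie at chr6:82774405-82774704, minus strand for Hk2, chr8:124949205-124949504, minus strand for Egln1 and chr7:110627407-110627706, plus strand for Adm, and each holds 2 matches.
Hk2: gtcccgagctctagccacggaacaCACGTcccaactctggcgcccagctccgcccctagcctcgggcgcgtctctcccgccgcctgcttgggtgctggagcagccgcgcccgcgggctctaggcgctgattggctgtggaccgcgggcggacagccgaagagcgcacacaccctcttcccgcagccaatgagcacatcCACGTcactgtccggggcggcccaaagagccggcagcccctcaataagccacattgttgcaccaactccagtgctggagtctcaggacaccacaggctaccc
Egln1: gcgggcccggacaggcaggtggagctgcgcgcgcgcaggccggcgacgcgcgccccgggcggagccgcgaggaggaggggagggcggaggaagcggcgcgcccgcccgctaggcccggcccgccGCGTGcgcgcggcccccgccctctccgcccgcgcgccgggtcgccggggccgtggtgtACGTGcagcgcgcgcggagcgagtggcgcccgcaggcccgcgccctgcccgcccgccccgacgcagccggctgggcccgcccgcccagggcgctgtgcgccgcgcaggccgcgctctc
Adm: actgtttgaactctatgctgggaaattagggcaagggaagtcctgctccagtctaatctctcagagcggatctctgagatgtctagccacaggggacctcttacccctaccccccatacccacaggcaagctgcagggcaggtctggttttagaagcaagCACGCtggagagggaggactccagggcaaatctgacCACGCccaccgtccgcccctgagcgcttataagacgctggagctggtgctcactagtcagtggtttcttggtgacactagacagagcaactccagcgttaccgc
The matches in Hk2 began 226 and 52 bases before the start and both read ACGTG on the opposite strand. Those in Egln1 began 126 and 68 bases before it, as GCGTG and ACGTG. Those in Adm, both GCGTG on the opposite strand, began 90 and 54 bases before it. None of these overlaps the letters CACGTG, the E-box that other factors bind, as a match in 1 of the 2 Pfkfb3 windows does. The Vhl window held no match.

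Of the 36 measured genes, 9 passed the test in at least 1 of the 3 comparisons and 27 in none. The share of all genes that passed in at least 1 comparison was not counted, so the 9 have no background. Hk2 was higher, and Egln1 and Adm were lower, after both siRNAs. Both comparisons use the same siControl arrays, and the share of all genes called alike after both siRNAs was not counted. Hk1, Slc2a3 and Vhl were called in siLSD1 and Pfkfb3 in siMyT1. The test was limma over all 9 arrays on log2(value + pseudocount), with a pseudocount of 0.196 units, and a gene was called at a Benjamini-Hochberg adjusted p under 0.05 over all 18193 genes. In siMyT1 against siControl, 4 of 36 members were called (11.1%), 1 higher (Hk2) and 3 lower (Pfkfb3, Egln1 and Adm), where 7.41% of all genes were called, 5.12% higher and 2.29% lower. In siLSD1 against siControl, 6 of 36 were called (16.7%), 3 higher (Hk1, Hk2 and Slc2a3) and 3 lower (Egln1, Vhl and Adm), where 8.90% of all genes were called, 3.97% higher and 4.93% lower. In siMyT1 against siLSD1, 6 of 36 were called (16.7%), 2 higher (Pgk1 and Vhl) and 4 lower (Hk1, Slc2a3, Pfkfb3 and P4ha2), where 18.8% of all genes were called, 13.2% higher and 5.58% lower. These shares rest on 4 to 6 genes each, and the share in the direct comparison of the knockdowns was below that of all genes.

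The median log2 fold change of the 36 members was -0.05 in siMyT1 against siControl, -0.03 in siLSD1 against siControl and -0.03 in siMyT1 against siLSD1, beside 0.05, -0.03 and 0.09 for all genes. Centring each array on its median moved the median of all genes in siMyT1 against siLSD1 to -0.04, and the members called there to 0 higher and 7 lower. Under the same centring the called members were 0 higher and 2 lower in siMyT1 against siControl, and 3 higher and 1 lower in siLSD1 against siControl. Over all genes, the higher genes made up 69.1% of the calls in siMyT1 against siControl, 44.6% in siLSD1 against siControl and 70.3% in siMyT1 against siLSD1. Those shares became 56.9%, 66.2% and 42.4% after median centring, and 55.6%, 50.8% and 55.6% after quantile normalization. The comparisons with siControl share its 3 arrays.

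Counted by arrays that did not overlap, 1 member was higher and 6 were lower in siMyT1 against siControl, where 24.0% of all genes did not overlap, 16.5% higher and 7.55% lower. In siLSD1 against siControl 3 were higher and 5 lower, where 26.8% of all genes did not overlap, 10.7% higher and 16.1% lower. In siMyT1 against siLSD1 7 were higher and 8 lower, where 33.0% of all genes did not overlap, 23.3% higher and 9.70% lower.

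**Figure D1:**
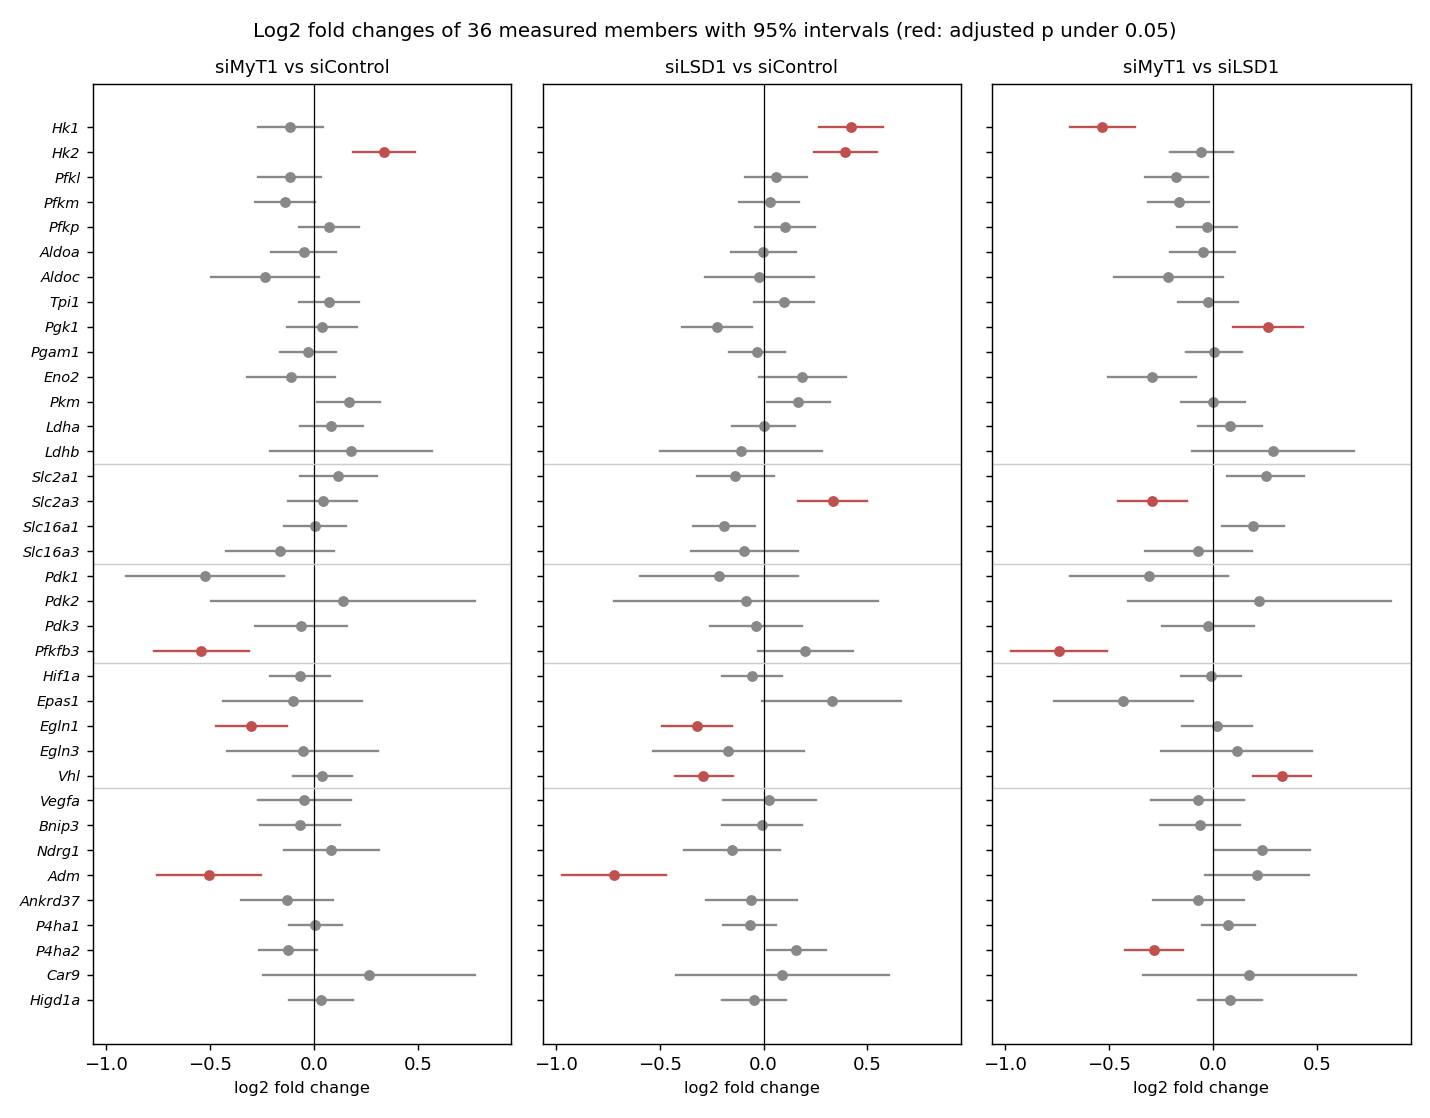
Log2 fold changes (x axis, on the log2(value + pseudocount) scale) of the 36 measured members with 95% intervals from limma, in 3 panels for siMyT1 against siControl, siLSD1 against siControl and siMyT1 against siLSD1; grey lines part the roles and red marks an adjusted p under 0.05. Most intervals cross 0, and the red members number 4, 6 and 6, with Adm lowest in the siLSD1 panel at -0.72.

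The first step of glycolysis held the clearest differences among the enzymes. Hk1, the hexokinase typical of brain, measured 22.7, 23.6 and 24.0 units on the siMyT1 arrays, 36.2, 31.2 and 34.7 on the siLSD1 arrays and 24.7, 27.6 and 23.9 on the siControl arrays. All 3 siLSD1 arrays lay above all arrays of the other groups, which overlapped each other. Hk1 was higher in siLSD1 than in siControl (log2 fold change 0.42, SE 0.07, adjusted p = 0.00213), while the difference of siMyT1 from siControl was -0.11 (95% interval -0.27 to 0.04, adjusted p = 0.425). After quantile normalization, and under no other alternative, Hk1 was called lower in siMyT1 than in siControl (log2 fold change -0.15, adjusted p = 0.0249). The direct difference of siMyT1 from siLSD1 was -0.53 (95% interval -0.69 to -0.38, adjusted p = 0.000219). Hk2, the insulin- and hypoxia-inducible hexokinase, measured 27.0, 25.8 and 27.2 units on the siMyT1 arrays, 28.6, 26.1 and 28.5 on the siLSD1 arrays and 21.5, 22.7 and 19.1 on the siControl arrays. Both knockdown groups lay wholly above siControl and overlapped each other. Hk2 rose in siMyT1 (log2 fold change 0.34, SE 0.07, adjusted p = 0.0109) and in siLSD1 (log2 fold change 0.39, SE 0.07, adjusted p = 0.00273), and the knockdowns differed by -0.06 (95% interval -0.21 to 0.09, adjusted p = 0.659). In siMyT1 the Hk2 call was lost after median centring (adjusted p = 0.0809) and without the intensity trend of the variance model (adjusted p = 0.0663). Both hexokinase calls in siLSD1, and that of Hk1 between the knockdowns, held under all 20 alternatives.

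Below hexokinase, Pgk1, the kinase of the first ATP-yielding step, was the other called enzyme. It measured 131, 126 and 147 units on the siMyT1 arrays, 121, 110 and 106 on the siLSD1 arrays and 131, 132 and 128 on the siControl arrays. The siLSD1 arrays were the lowest and did not overlap with either other group. Pgk1 was higher in siMyT1 than in siLSD1 (log2 fold change 0.26, SE 0.08, adjusted p = 0.0323), and the difference of siLSD1 from siControl was -0.23 (95% interval -0.39 to -0.06, adjusted p = 0.102). The difference from siControl passed under 3 of the 20 alternatives, namely quantile normalization, dim genes filtered out and array weights (adjusted p down to 0.00167). The call between the knockdowns was lost without siMyT1 replicate 1 or 3, siLSD1 replicate 2 or 3, or siControl replicate 1 (adjusted p from 0.0536 to 0.147). It was also lost after median centring (adjusted p = 0.584), in a fit of the 2 groups alone (adjusted p = 0.0741) and without the intensity trend (adjusted p = 0.0800).

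The other 11 measured enzymes were called in no comparison. They were the 3 phosphofructokinases Pfkl, Pfkm and Pfkp, the aldolases Aldoa and Aldoc, the isomerase Tpi1, the mutase Pgam1, the neuronal enolase Eno2, pyruvate kinase Pkm, and the lactate dehydrogenases Ldha and Ldhb. Ldha, which makes lactate from pyruvate, measured 111, 111 and 113 units on the siMyT1 arrays, 107, 102 and 107 on the siLSD1 arrays and 112, 109 and 96.5 on the siControl arrays, and its difference from siControl was 0.08 (95% interval -0.07 to 0.23, adjusted p = 0.584) in siMyT1 and 0.00 (95% interval -0.15 to 0.15, adjusted p = 0.996) in siLSD1. Aldoa measured 120, 115 and 125 units on the siMyT1 arrays, 133, 115 and 125 on the siLSD1 arrays and 121, 126 and 126 on the siControl arrays, with groups that overlapped throughout. Its difference from siControl was -0.05 (95% interval -0.21 to 0.11, adjusted p = 0.783) in siMyT1 and -0.00 (95% interval -0.16 to 0.16, adjusted p = 0.998) in siLSD1. Pkm averaged 77.9 ± 3.1 units in siMyT1, 78.0 ± 4 in siLSD1 and 69.4 ± 4.8 in siControl (SD, n = 3 each), with differences from siControl of 0.17 (95% interval 0.01 to 0.32, adjusted p = 0.196) and 0.17 (95% interval 0.01 to 0.32, adjusted p = 0.186). Over the glycolytic enzymes that were not called, log2 fold changes ran from -0.23 to 0.18 in siMyT1 and from -0.23 to 0.19 in siLSD1, each against siControl. The dimmest of 3 Pfkp probe sets differed by -0.34 and -0.39 in these comparisons, against 0.07 and 0.10 for the brightest. After quantile normalization Pfkm and Pkm were called in siMyT1 against siControl (adjusted p = 0.0184 and 0.0391), Pkm in siLSD1 against siControl (adjusted p = 0.0237), and Pfkl and Pfkm between the knockdowns (adjusted p = 0.0373 and 0.00414).

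Eno2 measured 24.8, 21.1 and 20.9 units on the siMyT1 arrays, 28.1, 25.2 and 28.8 on the siLSD1 arrays and 21.2, 27.9 and 23.3 on the siControl arrays, so that siMyT1 lay wholly below siLSD1 while siControl overlapped with both. Its difference between the knockdowns was -0.30 (95% interval -0.51 to -0.08, adjusted p = 0.0516), just short of the threshold. It passed under 10 of the 20 alternatives, at adjusted p down to 0.00885 with dim genes filtered out. Ldhb, the subunit typical of heart, stayed near 1 unit, at 1.33 ± 0.33 in siMyT1, 1.03 ± 0.021 in siLSD1 and 1.14 ± 0.19 in siControl (SD, n = 3 each), and its interval in siMyT1 against siControl reached 0.57.

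**Figure D2:**
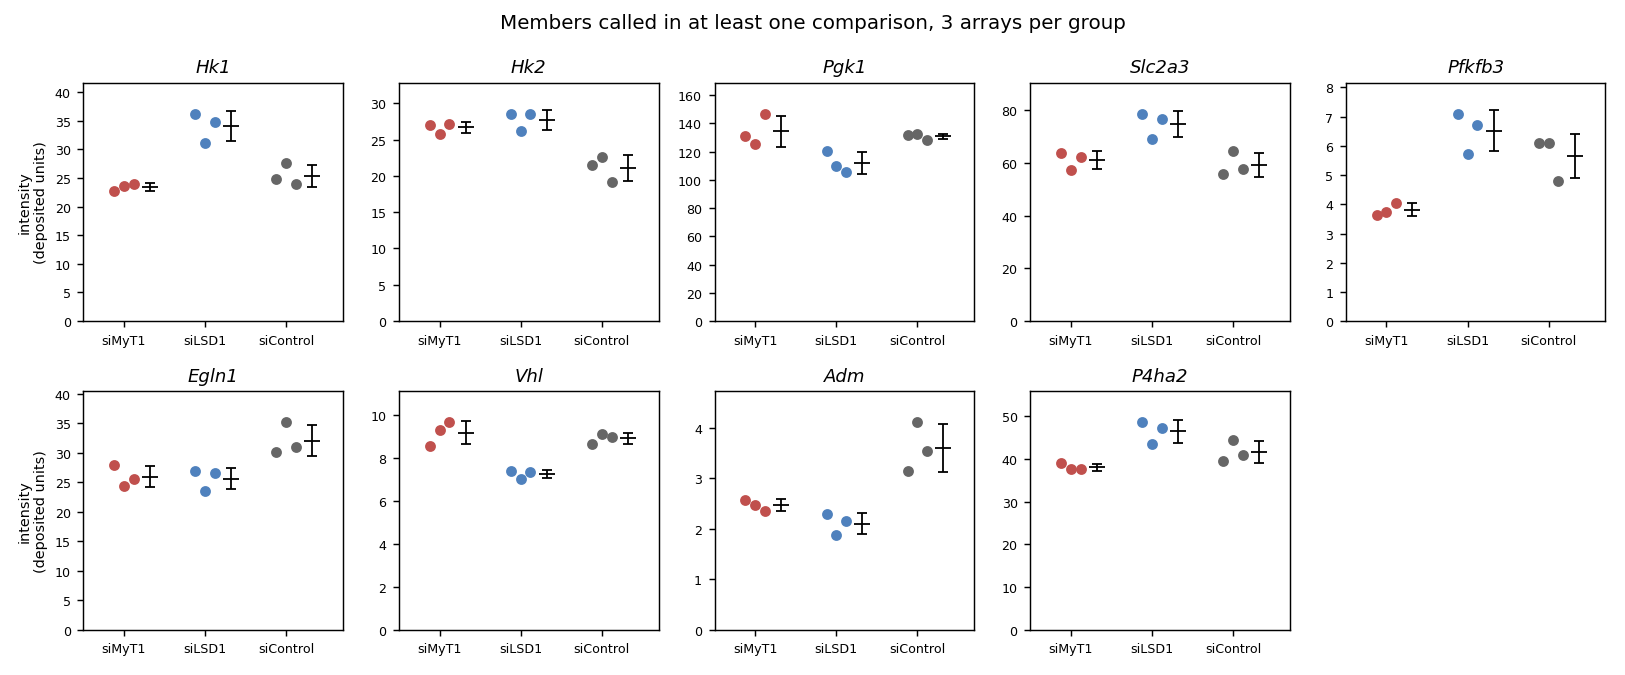
Intensity in deposited units (y axis, from 0, its own scale in each panel) of the 9 members called in at least 1 comparison; coloured points are the 3 arrays of siMyT1, siLSD1 and siControl, and black marks the mean with its SD. Hk1 and Slc2a3 are highest in siLSD1, Hk2 is higher and Egln1 and Adm lower in both knockdowns than in siControl, and Pfkfb3 is lowest in siMyT1.

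Among the carriers, Slc2a3, the high-affinity glucose carrier GLUT3 of neurons, was the called member. It measured 63.6, 57.1 and 62.1 units on the siMyT1 arrays, 78.6, 69.0 and 76.5 on the siLSD1 arrays and 55.6, 64.5 and 57.7 on the siControl arrays. The siLSD1 arrays were above all others. Slc2a3 was higher in siLSD1 than in siControl (log2 fold change 0.33, SE 0.08, adjusted p = 0.015) and lower in siMyT1 than in siLSD1 (log2 fold change -0.29, SE 0.08, adjusted p = 0.0176). Its 3 other probe sets differed in the same direction, by 0.27 to 0.32 in siLSD1 against siControl and by -0.41 to -0.26 in siMyT1 against siLSD1. The call against siControl was lost without siControl or siLSD1 replicate 1 or 3 (adjusted p from 0.0548 to 0.0871). That between the knockdowns was lost without siMyT1 replicate 2 or siLSD1 replicate 1 or 3 (adjusted p from 0.0576 to 0.0933). Both calls of Slc2a3 were also lost by averaging its probe sets (adjusted p = 0.184 and 0.109) and without the intensity trend (adjusted p = 0.0698 and 0.0661). Dropping the probe sets marked x or s in their names, for possible matches to other genes, ended both calls too (adjusted p = 0.334 and 0.239). The brightest Slc2a3 probe set, used in the test, is marked s.

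Slc2a1, the ubiquitous glucose carrier GLUT1, measured 17.5, 14.2 and 15.9 units on the siMyT1 arrays, 13.4, 13.2 and 13.1 on the siLSD1 arrays and 12.9, 15.9 and 14.9 on the siControl arrays. All siMyT1 arrays lay above all siLSD1 arrays, the opposite order to Slc2a3, with siControl overlapping both. The difference between the knockdowns was 0.25 (95% interval 0.07 to 0.44, adjusted p = 0.0563), which passed under 7 of the 20 alternatives. Slc16a1, which carries lactate and pyruvate across the membrane, averaged 46.1 ± 2.2 units in siMyT1, 40.4 ± 2.8 in siLSD1 and 46.0 ± 2.4 in siControl (SD, n = 3 each). Its siLSD1 arrays lay below all others, with a difference from siControl of -0.19 (95% interval -0.34 to -0.04, adjusted p = 0.118). This difference passed only after quantile normalization (adjusted p = 0.00449). Slc16a3, the hypoxia-inducible lactate exporter, overlapped between all groups, with a difference of -0.16 (95% interval -0.42 to 0.10, adjusted p = 0.512) in siMyT1 and -0.09 (95% interval -0.35 to 0.17, adjusted p = 0.757) in siLSD1.

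Of the 4 flux regulators, Pfkfb3 was called. Its product makes the sugar phosphate that activates phosphofructokinase and so speeds glycolysis. Pfkfb3 measured 3.62, 3.74 and 4.06 units on the siMyT1 arrays, 7.10, 5.74 and 6.71 on the siLSD1 arrays and 6.10, 6.09 and 4.78 on the siControl arrays. Every siMyT1 array was below every other array, and siLSD1 overlapped with siControl. Pfkfb3 fell in siMyT1 to 67.3% of siControl (log2 fold change -0.54, SE 0.11, adjusted p = 0.0085), and siMyT1 was at 58.4% of siLSD1 (log2 fold change -0.74, SE 0.11, adjusted p = 0.000343). The other Pfkfb3 probe set was dim, near 1 unit in all groups, and differed by -0.13 in siMyT1 against siControl and -0.05 between the knockdowns. With both probe sets averaged the calls were lost (log2 fold change -0.34, adjusted p = 0.212, and -0.40, adjusted p = 0.0769). They held under the 19 other alternatives.

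Pdk1, a hypoxia-induced kinase that shuts pyruvate dehydrogenase, measured 1.46, 1.04 and 1.07 units on the siMyT1 arrays, 1.40, 1.34 and 1.81 on the siLSD1 arrays and 1.45, 2.18 and 1.76 on the siControl arrays. The differences from siControl did not pass the test, at -0.52 (95% interval -0.90 to -0.14, adjusted p = 0.0975) in siMyT1 and -0.21 (95% interval -0.59 to 0.17, adjusted p = 0.572) in siLSD1. That in siMyT1 passed under 2 of the 20 alternatives, with dim genes filtered out and without siMyT1 replicate 1 (adjusted p down to 0.0175). The next brightest Pdk1 probe set, at 1.32, 1.14 and 1.44 units in siMyT1, siLSD1 and siControl, differed by -0.09 and -0.275 from siControl. A dimmer one differed by -0.40 and -0.35, and the dimmest averaged below the pseudocount in every group. Pdk2 and Pdk3 averaged under 1 unit and measured at most 0.249 and 0.0260 units on any array, close to or below the pseudocount of 0.196 units.

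In the oxygen-sensing machinery, Egln1 was lower after both siRNAs and Vhl after siLSD1, and Hif1a was called in no comparison. Egln1, the main prolyl hydroxylase that marks the alpha subunits in oxygen, measured 28.0, 24.4 and 25.5 units on the siMyT1 arrays, 26.9, 23.5 and 26.5 on the siLSD1 arrays and 30.1, 35.1 and 31.0 on the siControl arrays. Both knockdown groups lay wholly below siControl and overlapped each other. Egln1 fell in siMyT1 (log2 fold change -0.30, SE 0.08, adjusted p = 0.0345) and in siLSD1 (log2 fold change -0.32, SE 0.08, adjusted p = 0.0213), and the knockdowns differed by 0.02 (95% interval -0.15 to 0.19, adjusted p = 0.914). Its other probe set was lower too, by -0.23 in siMyT1 and -0.41 in siLSD1. Leaving out any 1 siControl array, siMyT1 replicate 2 or 3, or siLSD1 replicate 3 ended the siMyT1 call (adjusted p from 0.0537 to 0.145). The siLSD1 call was lost without siControl replicate 2 (adjusted p = 0.0859) or siLSD1 replicate 2 (adjusted p = 0.0733), and without siLSD1 replicate 3, where it lay at the threshold. Both Egln1 calls were also lost after median centring (adjusted p = 0.0971 and 0.261), with probe sets averaged (adjusted p = 0.179 and 0.0544) and without the intensity trend (adjusted p = 0.127 and 0.0977).

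Vhl, which recognises the hydroxylated alpha subunits for ubiquitination, measured 8.59, 9.34 and 9.67 units on the siMyT1 arrays, 7.43, 7.06 and 7.34 on the siLSD1 arrays and 8.66, 9.15 and 8.97 on the siControl arrays. The siLSD1 arrays lay below all others, and siMyT1 overlapped with siControl. Vhl fell in siLSD1 to 81.5% of siControl (log2 fold change -0.29, SE 0.07, adjusted p = 0.013) and was higher in siMyT1 than in siLSD1 (log2 fold change 0.33, SE 0.07, adjusted p = 0.00305). The other Vhl probe set differed by -0.40 and 0.45 in the same comparisons. The call in siLSD1 was lost without siLSD1 replicate 3 (adjusted p = 0.0510), after median centring (adjusted p = 0.152) and without the intensity trend (adjusted p = 0.0592). That between the knockdowns was lost after median centring (adjusted p = 0.112).

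Hif1a, the oxygen-regulated subunit, measured 36.2, 37.6 and 41.9 units on the siMyT1 arrays, 40.5, 39.3 and 36.5 on the siLSD1 arrays and 40.5, 39.8 and 40.6 on the siControl arrays, with groups that overlapped. Its difference from siControl was -0.07 (95% interval -0.21 to 0.08, adjusted p = 0.656) in siMyT1 and -0.06 (95% interval -0.20 to 0.09, adjusted p = 0.723) in siLSD1. Of its 3 dimmer probe sets, those averaging over 1 unit differed by -0.08 and -0.31 in siMyT1 and by -0.20 and -0.47 in siLSD1, all in the direction of lower values. These array values concern the transcript, while the factor is known to be controlled mainly by the stability of its protein. Epas1 and Egln3 were under 0.25 units on every array, so their fold changes carry little information.

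Adm fell after both siRNAs, by the largest fold of the called members in siLSD1. It encodes adrenomedullin, a vasodilator peptide of chromaffin and endothelial cells and a well known target of hypoxia-inducible factors. Adm measured 2.58, 2.48 and 2.35 units on the siMyT1 arrays, 2.29, 1.87 and 2.16 on the siLSD1 arrays and 3.15, 4.11 and 3.55 on the siControl arrays. The 3 groups did not overlap, with siLSD1 lowest and siControl highest. Adm was at 68.5% of siControl in siMyT1 (log2 fold change -0.51, SE 0.12, adjusted p = 0.0194) and at 58.5% in siLSD1 (log2 fold change -0.72, SE 0.12, adjusted p = 0.00145), and the knockdowns differed by 0.21 (95% interval -0.04 to 0.46, adjusted p = 0.244). Its other probe set differed by -0.24 and -0.41 against siControl. The call in siLSD1 held under all 20 alternatives. That in siMyT1 was lost without siControl or siMyT1 replicate 2 or 3 (adjusted p from 0.0575 to 0.0790), and with probe sets averaged (adjusted p = 0.0917).

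P4ha2, a subunit of the collagen prolyl hydroxylase of the endoplasmic reticulum, measured 39.0, 37.6 and 37.5 units on the siMyT1 arrays, 48.5, 43.5 and 47.2 on the siLSD1 arrays and 39.4, 44.4 and 40.9 on the siControl arrays. The siMyT1 arrays lay below all others, and siLSD1 overlapped with siControl. P4ha2 was lower in siMyT1 than in siLSD1 (log2 fold change -0.28, SE 0.07, adjusted p = 0.00809), a call held under all 20 alternatives, and its differences from siControl were -0.12 (95% interval -0.27 to 0.01, adjusted p = 0.308) and 0.16 (95% interval 0.02 to 0.30, adjusted p = 0.173). Against siControl, P4ha2 passed in siMyT1 only after quantile normalization (adjusted p = 0.0479) and in siLSD1 only with array weights (adjusted p = 0.023). Its relative P4ha1 differed from siControl by 0.01 (95% interval -0.12 to 0.13, adjusted p = 0.973) in siMyT1 and -0.07 (95% interval -0.19 to 0.06, adjusted p = 0.598) in siLSD1.

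The remaining hypoxia-induced members were called in no comparison. Vegfa, the endothelial growth factor that is among the most used readouts of hypoxia, measured 16.0, 15.7 and 15.9 units on the siMyT1 arrays, 16.9, 14.5 and 19.0 on the siLSD1 arrays and 14.2, 18.9 and 16.4 on the siControl arrays, with differences of -0.05 (95% interval -0.27 to 0.18, adjusted p = 0.869) in siMyT1 and 0.03 (95% interval -0.20 to 0.25, adjusted p = 0.929) in siLSD1. Bnip3, a mitochondrial receptor of mitophagy, averaged 53.4 ± 5.7 units in siMyT1, 55.7 ± 4.5 in siLSD1 and 55.9 ± 4.5 in siControl (SD, n = 3 each), and differed by -0.07 (95% interval -0.26 to 0.12, adjusted p = 0.753) and -0.01 (95% interval -0.20 to 0.19, adjusted p = 0.988). Ndrg1, a stress-induced cytoplasmic protein, differed by 0.08 (95% interval -0.15 to 0.31, adjusted p = 0.745) and -0.15 (95% interval -0.38 to 0.08, adjusted p = 0.488), and the mitochondrial protein gene Higd1a by 0.03 (95% interval -0.12 to 0.19, adjusted p = 0.859) and -0.05 (95% interval -0.20 to 0.11, adjusted p = 0.8). The 2 dimmer Higd1a probe sets ran the other way from the brightest, by 0.27 and 0.26 in siLSD1 against siControl and by -0.42 and -0.28 between the knockdowns. Ankrd37, an ankyrin repeat gene induced by hypoxia, measured 6.65, 6.65 and 5.50 units on the siMyT1 arrays, 7.11, 5.87 and 6.79 on the siLSD1 arrays and 6.17, 7.64 and 6.82 on the siControl arrays, with overlapping groups. Car9, the tumour carbonic anhydrase, was at or below 0.516 units on every array.

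For the members that were not called, the 95% intervals concern the brightest probe set and were not adjusted for the number of genes. Dimmer probe sets of some lay outside them, as for Hif1a in siLSD1 against siControl (-0.47) and Higd1a between the knockdowns (-0.42). Leaving out the 5 that averaged under 1 unit (Pdk2, Pdk3, Epas1, Egln3 and Car9), 25 of 27 uncalled members had a 95% interval within 0.5 of 0 on the log2 scale in siMyT1 against siControl, all but Ldhb and Pdk1. In siLSD1 against siControl this held for 24 of 25, all but Pdk1, and in siMyT1 against siLSD1 for 22 of 25, all but Eno2, Ldhb and Pdk1.

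**Figure D3:**
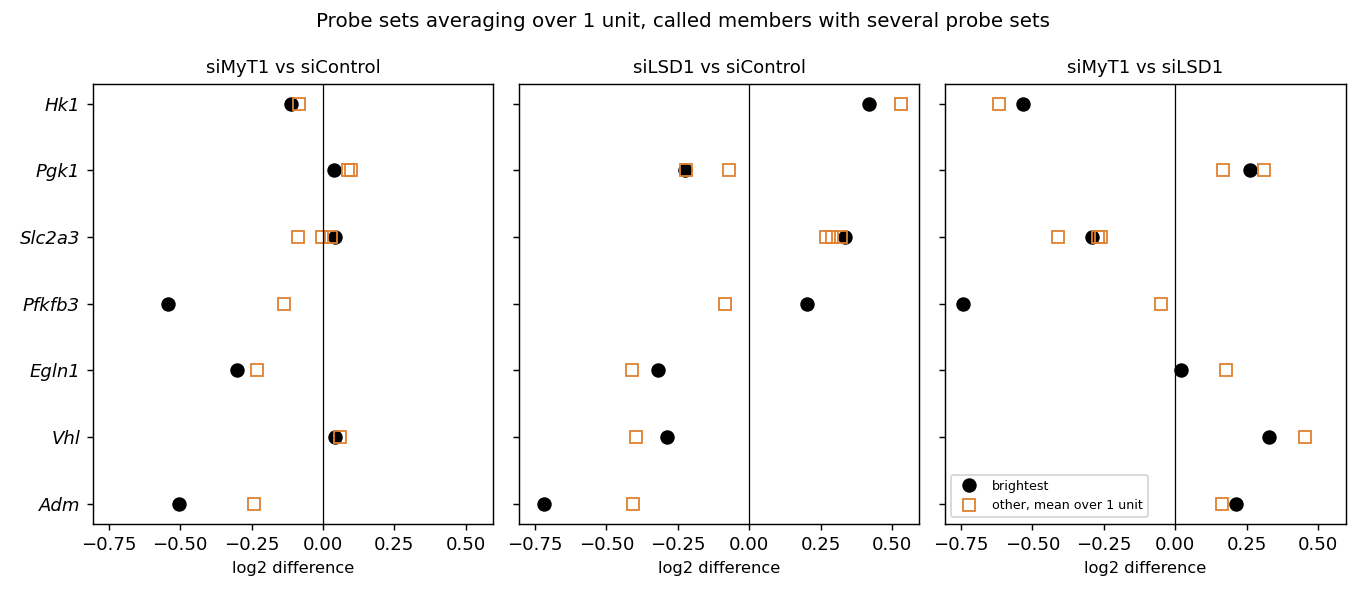
Log2 differences (x axis) by probe set for the 7 called members with several probe sets, in 3 panels by comparison; filled circles are the brightest probe set, used in the tests, and open squares the others averaging over 1 unit. For all 13 calls of these 7 members the squares lie on the same side of 0 as the circle, closest to 0 for Pfkfb3 (-0.13 and -0.05).

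The 5 lists of genes bordering on these pathways were counted in the same fit. The pentose phosphate pathway branches from glycolysis to make NADPH and ribose. Of its 6 measured genes, 2 were higher and 0 lower in siMyT1 against siControl, 0 higher and 1 lower in siLSD1 against siControl, and 2 higher and 1 lower in siMyT1 against siLSD1. That is 33.3%, 16.7% and 50% of the 6, where 7.41%, 8.90% and 18.8% of all genes were called, and it rests on 1 to 3 genes. Pgd, the phosphogluconate dehydrogenase that yields NADPH, measured 20.9, 20.8 and 22.5 units on the siMyT1 arrays, 19.5, 16.2 and 19.6 on the siLSD1 arrays and 14.6, 16.8 and 16.8 on the siControl arrays. It rose in siMyT1 (log2 fold change 0.41, SE 0.08, adjusted p = 0.00973), a call lost without siControl replicate 1 (adjusted p = 0.0533). Rpe, the ribulose phosphate epimerase, measured 7.87, 8.74 and 8.41 units on the siMyT1 arrays, 6.44, 5.42 and 6.14 on the siLSD1 arrays and 7.51, 7.79 and 6.84 on the siControl arrays. All siMyT1 arrays were above and all siLSD1 arrays below those of siControl. The difference of Rpe between the knockdowns passed the test and held under all 20 alternatives (log2 fold change 0.46, SE 0.08, adjusted p = 0.00135), as did that of the transaldolase Taldo1, which ran the other way (log2 fold change -0.36, SE 0.08, adjusted p = 0.00493). The fall of Rpe in siLSD1 (log2 fold change -0.29, SE 0.08, adjusted p = 0.0399) was lost without siControl replicate 1 or 2, siLSD1 replicate 2 or 3, or siMyT1 replicate 3 (adjusted p from 0.0599 to 0.135). It was also lost with probe sets averaged (adjusted p = 0.289) and in a fit of the 2 groups alone (adjusted p = 0.0643). Rpia, the ribose phosphate isomerase, was higher in siMyT1 than in siLSD1 (log2 fold change 0.33, SE 0.07, adjusted p = 0.00828). Its rise in siMyT1 against siControl (log2 fold change 0.29, SE 0.07, adjusted p = 0.0322) was lost without siControl replicate 1 or 3, siMyT1 replicate 2 or 3, or siLSD1 replicate 3 (adjusted p from 0.0556 to 0.138), and in a fit of the 2 groups alone (adjusted p = 0.0605).

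Of 28 further hypoxia-induced genes, 1 was higher and 0 lower in siMyT1 against siControl, 0 higher and 1 lower in siLSD1 against siControl, and 3 higher and 0 lower in siMyT1 against siLSD1. These 3.57%, 3.57% and 10.7% of the list were below the 7.41%, 8.90% and 18.8% called among all genes. Fam162a, a hypoxia-responsive mitochondrial protein gene, measured 37.7, 35.7 and 34.5 units on the siMyT1 arrays, 27.5, 23.2 and 27.2 on the siLSD1 arrays and 32.5, 36.4 and 33.6 on the siControl arrays. The siLSD1 arrays lay wholly below the others. Fam162a fell in siLSD1 (log2 fold change -0.40, SE 0.07, adjusted p = 0.00425), a call lost with probe sets averaged (adjusted p = 0.0610). It was higher in siMyT1 than in siLSD1 under all 20 alternatives (log2 fold change 0.47, SE 0.07, adjusted p = 0.000694). Pgm2, a phosphopentomutase, was higher in siMyT1 than in siControl (log2 fold change 0.41, SE 0.09, adjusted p = 0.0117), a call lost without siMyT1 replicate 3 (adjusted p = 0.0551), and than in siLSD1 (log2 fold change 0.42, SE 0.09, adjusted p = 0.00367). Siah2, a ubiquitin ligase of Egln proteins, was the other higher gene between the knockdowns (log2 fold change 0.34, SE 0.09, adjusted p = 0.0213), a call lost without siMyT1 replicate 2 or 3 or siLSD1 replicate 2 (adjusted p from 0.0717 to 0.0830).

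Among 13 further genes of oxygen sensing, 2 were higher in siMyT1 against siControl, 1 in siLSD1 against siControl and 1 in siMyT1 against siLSD1, and 0 were lower in any. The called shares were 15.4%, 7.69% and 7.69%, against 7.41%, 8.90% and 18.8% of all genes. Cited2, itself hypoxia-induced and a brake on the factors through their coactivators, measured 22.4, 23.0 and 24.6 units on the siMyT1 arrays, 24.1, 22.2 and 23.4 on the siLSD1 arrays and 17.8, 19.9 and 17.7 on the siControl arrays. Both knockdown groups lay wholly above siControl. Cited2 rose in siMyT1 (log2 fold change 0.34, SE 0.07, adjusted p = 0.00815) and in siLSD1 (log2 fold change 0.33, SE 0.07, adjusted p = 0.0062), calls lost with its probe sets averaged (adjusted p = 0.0706 and 0.0966). Cul2, the scaffold of the Vhl ligase, was higher in siMyT1 than in siLSD1 (log2 fold change 0.39, SE 0.09, adjusted p = 0.00607) and than in siControl (log2 fold change 0.36, SE 0.09, adjusted p = 0.0228), where leaving out siControl replicate 1 or 3 or siMyT1 replicate 2 or 3 ended the second call (adjusted p from 0.0675 to 0.0836). Both Cul2 calls were lost with probe sets averaged (adjusted p = 0.132 and 0.319).

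In the list of 16 other glycolysis genes, 0 were called in siMyT1 against siControl, 2 higher and 1 lower in siLSD1 against siControl, and 1 higher and 1 lower in siMyT1 against siLSD1. The called shares were 0%, 18.8% and 12.5%, against 7.41%, 8.90% and 18.8% of all genes. Adpgk, a glucokinase that uses ADP, measured 2.88, 3.58 and 3.51 units on the siMyT1 arrays, 4.95, 4.91 and 4.82 on the siLSD1 arrays and 3.59, 3.88 and 2.92 on the siControl arrays, with siLSD1 above all other arrays. It was higher in siLSD1 than in siControl (log2 fold change 0.48, SE 0.11, adjusted p = 0.0147), a call lost without siControl replicate 3 (adjusted p = 0.0556) or siLSD1 replicate 3 (adjusted p = 0.0508), and lower in siMyT1 than in siLSD1 (log2 fold change -0.54, SE 0.11, adjusted p = 0.00417). Bpgm, the bisphosphoglycerate mutase, was the other gene higher in siLSD1 than in siControl (log2 fold change 0.38, SE 0.10, adjusted p = 0.0305), a call lost on averaging its probe sets (adjusted p = 0.185) and without siControl or siLSD1 replicate 1 or 3 (adjusted p from 0.0793 to 0.135). A Bpgm probe set not marked x or s in its name differed by 0.00 (adjusted p = 0.998). Slc2a8, an intracellular glucose carrier, fell in siLSD1 (log2 fold change -0.51, SE 0.12, adjusted p = 0.0156) and was higher in siMyT1 than in siLSD1 (log2 fold change 0.43, SE 0.12, adjusted p = 0.0214). Both were lost without siLSD1 replicate 2 or 3, the call against siControl also without siControl replicate 2, and that between the knockdowns also without siMyT1 replicate 2 (adjusted p from 0.0563 to 0.0908).

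Of 10 genes for the entry of pyruvate into mitochondria, 0 were called in siMyT1 against siControl, 1 was higher in siLSD1 against siControl, and 3 were higher in siMyT1 than in siLSD1. The called shares were 0%, 10% and 30%, against 7.41%, 8.90% and 18.8% of all genes, of which 13.2% were higher in siMyT1 than in siLSD1. The gene higher in siLSD1 was Mpc1, a subunit of the mitochondrial pyruvate carrier (log2 fold change 0.28, SE 0.07, adjusted p = 0.0254). The other 3 were Dlat, Dld and Pdhx, subunits of the pyruvate dehydrogenase complex, with log2 fold changes of 0.34, 0.23 and 0.38 (adjusted p = 0.0284, 0.0425 and 0.0381). The Mpc1 call was lost without any 1 siControl array or siLSD1 replicate 1 or 3 (adjusted p from 0.0559 to 0.0980). Dlat, Dld and Pdhx lost theirs without siMyT1 or siLSD1 replicate 2 or 3 (adjusted p from 0.0557 to 0.171), Dld also without siMyT1 replicate 1 (adjusted p = 0.0556). Without siControl replicate 1 the calls of Dld and Pdhx were lost (adjusted p = 0.0547 and 0.0531). The calls of Dlat and Dld were lost with probe sets averaged (adjusted p = 0.0775 and 0.534), and that of Pdhx after quantile normalization (adjusted p = 0.0532) and in a fit of the 2 groups alone (adjusted p = 0.0659). Across the 5 lists, the fit without the intensity trend ended the calls of Pgd, Rpia, Cul2 and Cited2 in siMyT1, of Mpc1 and Rpe in siLSD1, and of Slc2a8, Siah2, Dlat, Dld and Pdhx between the knockdowns (adjusted p from 0.0511 to 0.127). Median centring ended those of Pgd, Rpia, Cul2 and Cited2 in siMyT1, of Rpe and Fam162a in siLSD1, and of Rpia, Cul2, Slc2a8, Siah2, Dlat, Dld and Pdhx between the knockdowns (adjusted p from 0.0617 to 0.480).

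**Figure D4:**
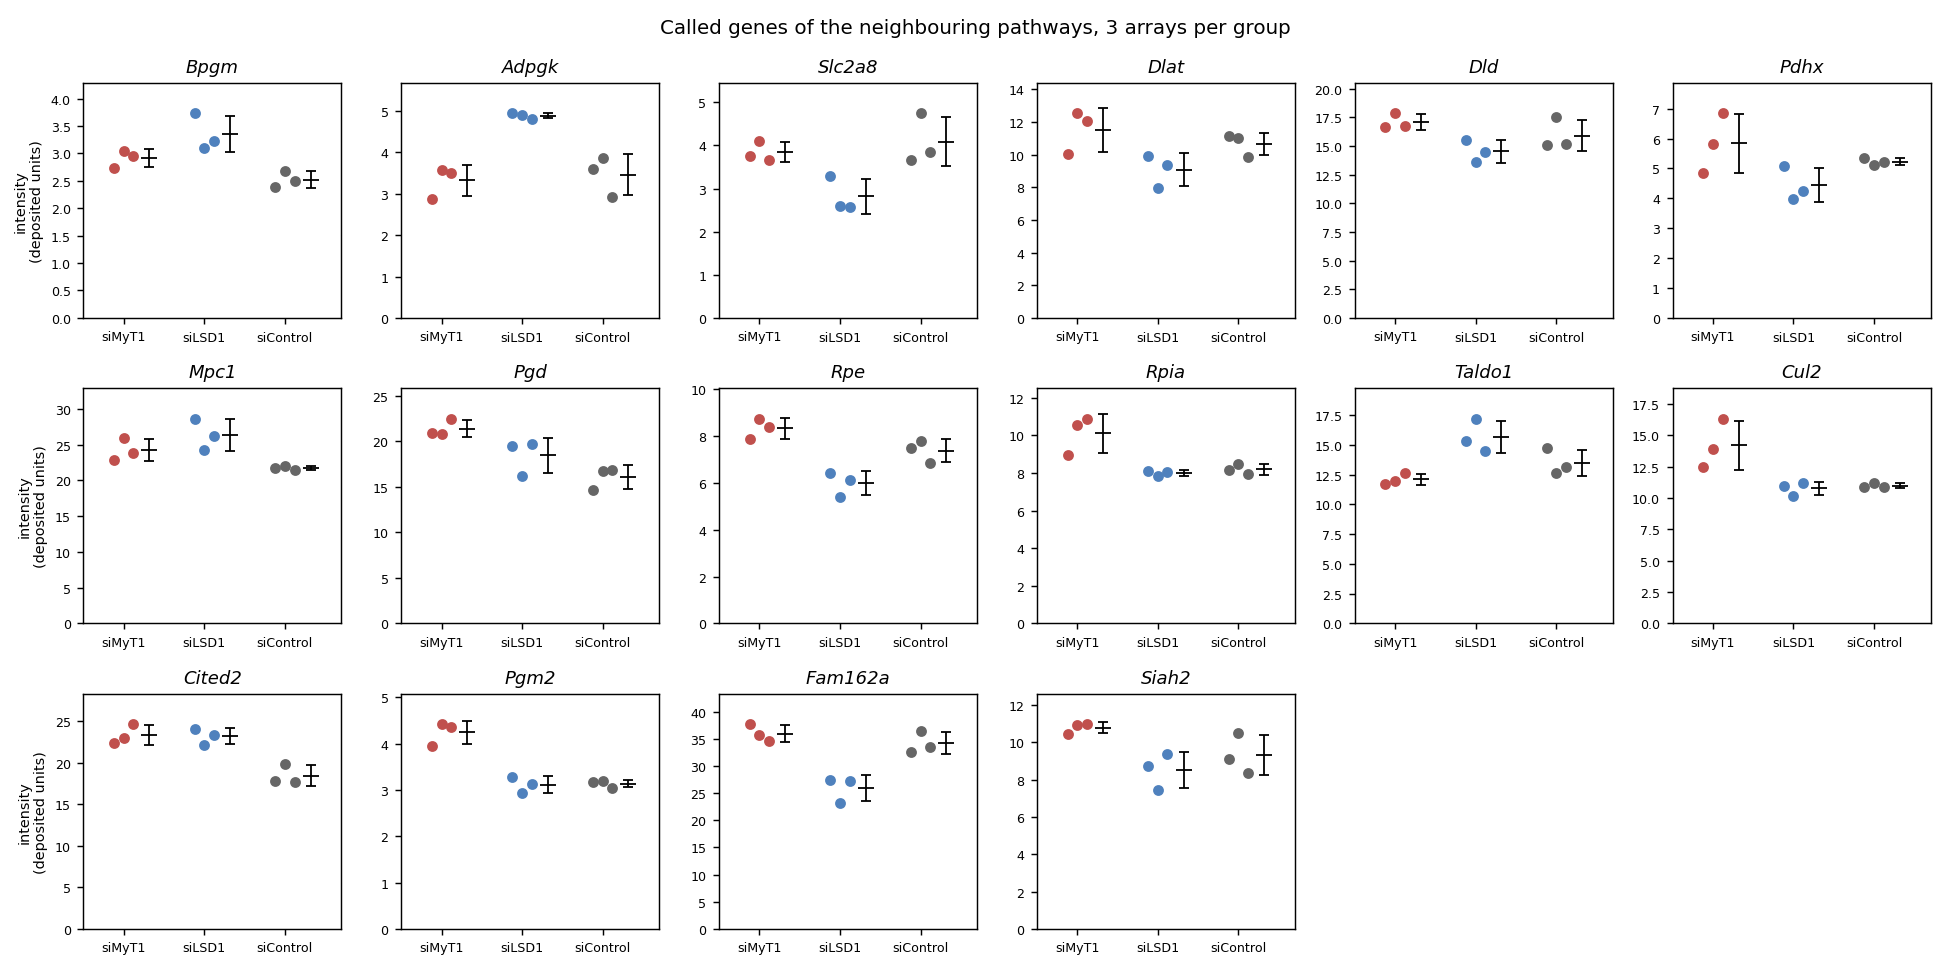
Intensity in deposited units (y axis, from 0, its own scale in each panel) of the 16 genes of the bordering pathways called in at least 1 comparison; coloured points are the 3 arrays of siMyT1, siLSD1 and siControl, and black marks the mean with its SD. Adpgk stands highest and Fam162a lowest in siLSD1, Cited2 is higher in both knockdowns than in siControl, and Rpe runs from siMyT1 down to siLSD1 with siControl between.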

How the data were processed

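Total RNA of 9 Neuro2a samples (siMyT1, siLSD1 and siControl, 3 each) was hybridised to 1-colour arrays after biotin labelling, per the labels. What the authors deposited was a linear intensity for each of 45101 probe sets. Their summarisation, background and scaling steps are not given in the sources used, and array medians lay between 0.302 and 0.424 units. Precision is limited by the 3 samples per group.

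Probe sets with 1 gene symbol (34945 without controls) were named from the platform annotation, and each gene was taken from its brightest probe set over all arrays, which gave 18193 genes. Values were multiplied by 1 constant, 163.6, so that the trimmed mean (2% at each end) averaged 500, and analysed as log2(value + 32), a pseudocount of 0.196 deposited units; fold changes understate those of dim genes. Group means were fitted over all 9 arrays with limma 3.58.1 in R 4.3.3, with an intensity trend, 6 residual and 6.84 prior degrees of freedom; tests were two-sided, with Benjamini-Hochberg adjustment over the 18193 genes. The code was tested on simulated data. Members and lists were chosen with earlier results of these data known. Named were all measured members, the siRNA targets, and called genes of 5 bordering lists (up to 6 each per comparison). The 20 alternatives covered scaling, pseudocount, dim genes, probe sets, the variance model, the replicate block and each array left out. Figures and promoter searches used Python 3.11.15.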

Additional observations from a re-analysis of the deposited data

How the results depend on the processing

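Of 16 called differences of members, 5 stayed called under all 20 alternatives, those of Hk1, Hk2 and Adm in siLSD1 against siControl and of Hk1 and P4ha2 in siMyT1 against siLSD1, and none of the 16 changed sign. Another 17 differences of members gained a call under at least 1 alternative, Eno2 and Slc2a1 between the knockdowns most often (10 and 7 of 20). The number of called members in siMyT1 against siControl (4) was 8 after quantile normalization, 2 after median centring, 1 with all probe sets averaged, 2 without the intensity trend, and 2 to 5 on leaving out 1 array. In siLSD1 against siControl (6) it was 3 without the trend, 10 with array weights and 3 to 6 on leaving out 1 array. In siMyT1 against siLSD1 (6) it was 10 after quantile normalization, 10 with dim genes filtered out and 11 with array weights. It fell there to 4 with all probe sets averaged and to 4 without the trend, and was 4 to 8 on leaving out 1 array. Over all genes, the 1348 calls in siMyT1 against siControl became 2460 after quantile normalization, 862 with probe sets averaged, 765 without the trend and 650 to 1450 without 1 array. The 1619 calls in siLSD1 against siControl became 2803 after quantile normalization, 1079 with probe sets averaged, 2966 with array weights and 965 to 1723 without 1 array. The cause of these shifts was not tested, save that averaging brings in dimmer probe sets and leaving out an array fewer samples. With the replicate number as a block, members called were 3, 6 and 5 in the 3 comparisons and genes called 935, 1259 and 2927; the Egln1 call in siMyT1 (adjusted p = 0.0711) and the Pgk1 call (adjusted p = 0.0750) were lost, as were those of Rpia in siMyT1, of Bpgm, Mpc1 and Rpe in siLSD1, and of Dlat, Dld and Pdhx between the knockdowns (adjusted p from 0.0510 to 0.0816). Same-numbered arrays did not deviate together (correlations from -0.026 to 0.038), so the numbers were not taken as pairs. Signal near the pseudocount limits what can be said of Pdk2, Pdk3, Epas1, Egln3 and Car9.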

Other observations

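Gapdh, the glyceraldehyde phosphate dehydrogenase of mid glycolysis, has 3 control probe sets of its own on the array, which the choice of members left out. The probe set at the 3' end averaged 120 ± 5.3 units in siMyT1, 110 ± 5.1 in siLSD1 and 115 ± 4.5 in siControl, and that at the 5' end 151 ± 8.2, 137 ± 8.6 and 146 ± 7.4 (SD, n = 3 each). The groups overlapped at the 5' end and in the middle of the transcript, and no test was made.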
